A study of Homo sapiens with 16 samples.

Results

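The sites described here are the places in the genome of A375, an established human melanoma cell line, where the transcription factor ATF3 was bound with and without TGFB1 in acetylated chromatin and where JUNB was not called. They were chosen by measured peak calls: a peak of the ATF3 TGFB1 list on chromosomes 1 to 22 and X that overlapped an ATF3 vehicle peak and an H3K27ac TGFB1 peak by at least 1 bp, and overlapped no JUNB peak of either treatment. The rule found 1077 such sites among 62483 ATF3 TGFB1 peaks, or 1.72%, and they are called constant acetylated sites without JUNB below. Chromatin immunoprecipitation with sequencing was done after 2 h of starvation and then 2 h with 10 ng/mL TGFB1, or with its vehicle of 4 mM HCl and 1 mg/mL BSA, using 10 µg of antibody against ATF3, JUNB, H3K27ac, SMAD2/3 or MITF. Each antibody and treatment had 1 library, so no value below has a replicate check and no p-value was computed. Intervals are 95% Wilson intervals for shares and 95% Newcombe intervals for differences of shares, and they cover counting error over peaks only. H3K27ac with TGFB1 lay within 1 kb of the start of 8 of 17 pigment cell genes, MITF and PAX3 included. It did not at TYR, TYRP1, DCT or MLANA, which make or mark pigment. Of 9 genes of other cell types, 1 (SYP) had it. The share of all gene starts with H3K27ac was not computed, so these counts are a description and cannot check the cell line.

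ATF3 is a basic leucine zipper protein of the ATF and CREB family that cells induce on stress and on TGF-beta signalling. It binds the cAMP response element (CRE), TGACGTCA, and, with JUN proteins, the AP-1 element TGACTCA that JUNB and FOS dimers also bind. A further element, TGATGCAA, joins an ATF site to a C/EBP site; it is known from genes of amino acid supply and stress, where ATF4 and C/EBP proteins act on it and ATF3 can also bind. H3K27ac is the histone mark of active promoters and enhancers, SMAD2/3 are the factors that TGFB1 receptors activate, and MITF is the central regulator of the pigment cell lineage.

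The promoter stretches printed first carry the composite element, in capitals, close to the ATF3 summit, and belong to strong sites without JUNB. They are RefSeq sequence of GRCh38.p14 on the gene's strand, 5′ to 3′, at chr12:24949112-24949179 (minus strand, BCAT1), chr5:33440937-33440994 (plus strand, TARS1), chr17:42677163-42677230 (minus strand, PLEKHH3) and chr11:3057394-3057455 (minus strand, CARS1). The ATF3 summit fell on base 34, 32, 39 and 34 of the stretches, in the order printed.
BCAT1: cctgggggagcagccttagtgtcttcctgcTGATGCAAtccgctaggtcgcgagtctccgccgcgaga
TARS1: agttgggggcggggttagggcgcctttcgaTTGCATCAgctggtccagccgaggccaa
PLEKHH3: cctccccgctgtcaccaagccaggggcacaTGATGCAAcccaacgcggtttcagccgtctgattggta
CARS1: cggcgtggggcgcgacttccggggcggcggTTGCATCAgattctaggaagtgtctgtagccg

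The next stretches carry the palindromic CRE, again in capitals, at chr19:47113761-47113828 (minus strand, ZC3H4), chr12:100267116-100267183 (plus strand, SCYL2) and chr19:35612675-35612742 (plus strand, HAUS5, which has a pair of CREs). The summit fell on base 14, 48 and 19 of these stretches, in the order printed.
ZC3H4: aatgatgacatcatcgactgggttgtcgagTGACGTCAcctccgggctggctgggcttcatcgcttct
SCYL2: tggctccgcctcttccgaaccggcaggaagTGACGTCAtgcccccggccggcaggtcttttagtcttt
HAUS5: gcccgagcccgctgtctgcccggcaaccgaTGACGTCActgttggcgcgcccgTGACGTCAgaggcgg

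The values that chose the sites are given here as a description. In the whole ATF3 TGFB1 list, 22.3% of peaks overlapped an ATF3 vehicle peak, 26.8% overlapped H3K27ac and 39.9% overlapped JUNB. The ATF3 vehicle library was shallow, with an implied 6.37 M reads against 28.1 M for ATF3 TGFB1, a ratio of 4.41, and how far this depth decided which sites were called constant was not tested. The sites had a median ATF3 TGFB1 fold enrichment of 11.3 (range 1.93 to 95.8), against 5.78 in the whole list, and their median lay at the 84.5th percentile of the list by -log10 p. Fold enrichment is the caller's read pileup over local background at the summit, each with 1 added. At the edges of the rule, the nearest JUNB peak began 1 bp away, the median gap to JUNB was 2671 bp, 248 sites (23%) lay within 500 bp of a JUNB peak, and 301 (27.9%) lay more than 10 kb from one. The lowest -log10 q was 1.59 among the sites and 1.32 among their vehicle partners, the smallest overlap was 3 bp with ATF3 vehicle and 1 bp with H3K27ac, and 26 sites just outside the rule shared under 50 bp with JUNB.

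Gene starts were common at these sites. Of the 1046 sites on chromosomes with starts in the promoter table, 282, or 27% (interval 24.4 to 29.7), had the ATF3 summit within 1 kb of a protein-coding gene start, against 5.67% of all ATF3 TGFB1 peaks. The closest class for comparison is the 3479 constant acetylated ATF3 sites with JUNB, which the rule sets apart by the JUNB call alone. Among those, 421 of 3358 (12.5%, 11.5 to 13.7) lay that near a start, so the share was 14.4 percentage points higher without JUNB (11.6 to 17.4). The 3635 acetylated ATF3 peaks without JUNB that were called with TGFB1 only had 28.3% (26.8 to 29.8), and the difference of -1.35 points (-4.37 to 1.78) spanned 0. Constant ATF3 sites without JUNB and without H3K27ac had 0.769%.

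The remaining sites spread over gene bodies and intergenic sequence. Summits more than 10 kb from every start made up 588 sites, or 56.2%, against 74.7% with JUNB and 82.8% in the whole list. Of all 1046 sites, 37.6% were elsewhere in a gene body and 35.5% outside gene bodies. The median distance to a start was 16.9 kb without JUNB, 39.2 kb with JUNB and 64.4 kb in the whole list. Within 1 kb of a start, 154 summits lay upstream and 128 at or downstream of it, with a median distance of 240 bp, and 86 lay within 100 bp. Counting starts rather than peaks, 309 of 15812 protein-coding starts (1.95%) had a constant acetylated site without JUNB within 1 kb, 461 (2.92%) had one with JUNB and 1063 (6.72%) had a TGFB1-only acetylated site.

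**Figure D1:**
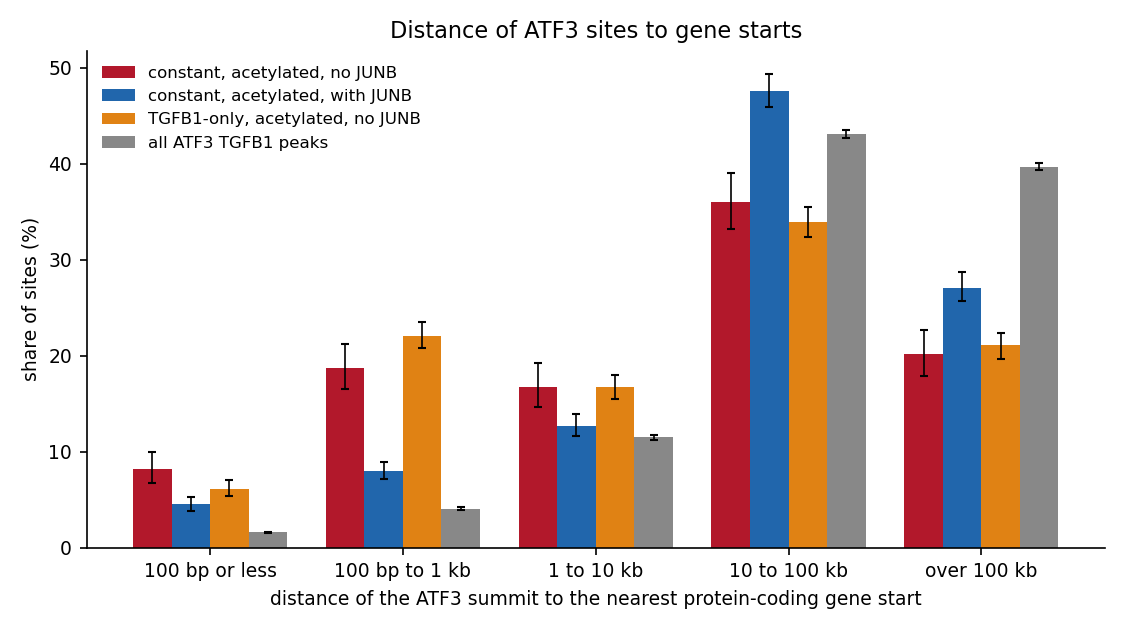
Share of ATF3 sites (y axis, percent) by distance of the summit to the nearest protein-coding gene start (x axis), with bars for constant acetylated sites without JUNB, the same with JUNB, TGFB1-only acetylated sites without JUNB, and all ATF3 TGFB1 peaks. Error bars are 95% Wilson intervals over peaks. The first and last of the distance classes held 8.22% and 20.2% of the sites without JUNB, against 4.53% and 27.1% of those with JUNB.

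Sites near a start sat in stronger acetylation than distant ones, while their ATF3 peaks were of like height. The median H3K27ac TGFB1 fold was 20.3 at the 282 sites with a start within 1 kb, 15.4 at the 176 sites from 1 to 10 kb away and 8.69 at the 588 sites farther out. The median ATF3 TGFB1 pileup was 37, 38.5 and 38 reads in the same order. The ATF3 vehicle medians were 10, 11 and 10 reads. The median gap to a JUNB peak was 6482 bp near starts, 1844 bp at the middle distance and 2141 bp farther out. All these sites overlapped H3K27ac with TGFB1 by the rule. With vehicle, 967 of the 1077 (89.8%, 87.8 to 91.5) also did, against 89.2% with JUNB, 87.1% for TGFB1-only sites and 25.3% of the whole list.

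SMAD2/3 was scarce at these sites beside those with JUNB. Of the 1077, 70 (6.50%, 5.18 to 8.13) overlapped a SMAD2/3 TGFB1 peak, below the 8.22% of the whole ATF3 TGFB1 list, while 1333 of the 3479 sites with JUNB did (38.3%, 36.7 to 39.9). The difference was -31.8 percentage points (-33.9 to -29.5). Against the 5.45% of TGFB1-only acetylated sites without JUNB, the difference of 1.05 points (-0.486 to 2.83) spanned 0. Near starts, 8 of 282 sites without JUNB (2.84%) and 106 of 421 with JUNB (25.2%) overlapped SMAD2/3, a difference of -22.3 points (-26.9 to -17.6), beside 14.8% of all ATF3 TGFB1 peaks near starts. Away from starts the shares were 7.46% without JUNB and 40.2% with JUNB, a difference of -32.7 points (-35.2 to -30.0), beside 7.90% of all ATF3 TGFB1 peaks there. The direction against sites with JUNB was the same in both locations.

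Peak width also differed between the classes. Median ATF3 widths were 312 bp without JUNB and 451 bp with JUNB, and the part of width in the overlap shares was not tested. The share of 6.50% also depended on the rule: it was 10.9%, above the 8.22% of the whole list, where the overlaps that chose the sites were read at the summit and SMAD2/3 still at 1 bp or more, and 3.34% with SMAD2/3 peaks of -log10 q of at least 5 only. Counting only ATF3 summits inside a SMAD2/3 peak, the shares were 4.46% without JUNB, 31.3% with JUNB and 6.83% in the whole list. With vehicle, SMAD2/3 was called at 0.554% of the whole list, and at 1 site without JUNB (0.0929%) against 67 with JUNB (1.93%). That 1 site, named after its value was seen, lay just upstream of the start of KIAA0232, a gene whose product is little described.

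The strongest site with SMAD2/3 was at the start of TARS1, the cytosolic threonyl-tRNA synthetase, with a SMAD2/3 TGFB1 fold of 4.65. The next lay far from starts. One was 72.2 kb upstream of TNFSF18, a ligand of the tumour necrosis factor family, with a SMAD2/3 fold of 5.27. Another was 28.2 kb upstream of PPP2R5C, a regulatory subunit of protein phosphatase 2A, with a fold of 6.23, and a JUNB peak lay 143 bp from it. The others were 1.86 kb inside CTDSP2 (5.47), a small phosphatase, inside ADCY10 and DCAF6 (5.28), and 277 kb upstream of CLINT1 (5.49). The 6 folds ran from 4.65 to 6.23, beside a median of 5.76 in the whole SMAD2/3 TGFB1 list.

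MITF was also less frequent than at sites with JUNB, but more frequent near gene starts than away from them. With TGFB1, 42 sites (3.90%, 2.90 to 5.23) overlapped MITF, against 465 with JUNB (13.4%) and 2.89% of the whole list. The share without JUNB minus that with JUNB was -9.47 points (-11.0 to -7.75). The share of 3.90% was 6.19% where only JUNB peaks of -log10 q of at least 5 counted, and 2.32% with MITF peaks of that level. With vehicle, 44 sites (4.09%) did, against 387 with JUNB (11.1%) and 2.55% of the whole list, and the share was 2.67% where 50% of both ATF3 peaks had to overlap. MITF of both treatments met at 23 sites (2.14%), against 258 with JUNB (7.42%) and 1.53% of the whole list. SMAD2/3 and MITF with TGFB1 met at 6 sites (0.557%), against 291 with JUNB (8.36%) and 1.31% of the whole list.

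Near a start, 21 of 282 sites without JUNB (7.45%, 4.92 to 11.1) overlapped MITF TGFB1, and away from starts 20 of 764 did (2.62%, 1.70 to 4.01). Sites with JUNB had 17.8% near starts and 12.4% away. In the whole ATF3 TGFB1 list the shares were 12% near starts and 2.37% away, the same order. The strongest promoter with MITF of both treatments was that of RAB7A, the GTPase of late endosomes. Its summit lay 0.109 kb upstream, with MITF folds of 20 with TGFB1 and 11.6 with vehicle. PGM2L1 had 10.6 with TGFB1 and 12.2 with vehicle, and INPP5B, a phosphoinositide phosphatase, had 5.13 with TGFB1 and 5.46 with vehicle. The other sites named by strength were upstream of ZNF682, 343 kb from the start of MZT1, and on chromosome 8, where no gene start was used. The ZNF682 site, the strongest with MITF of both treatments, lay 53 bp from a JUNB peak.

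**Figure D2:**
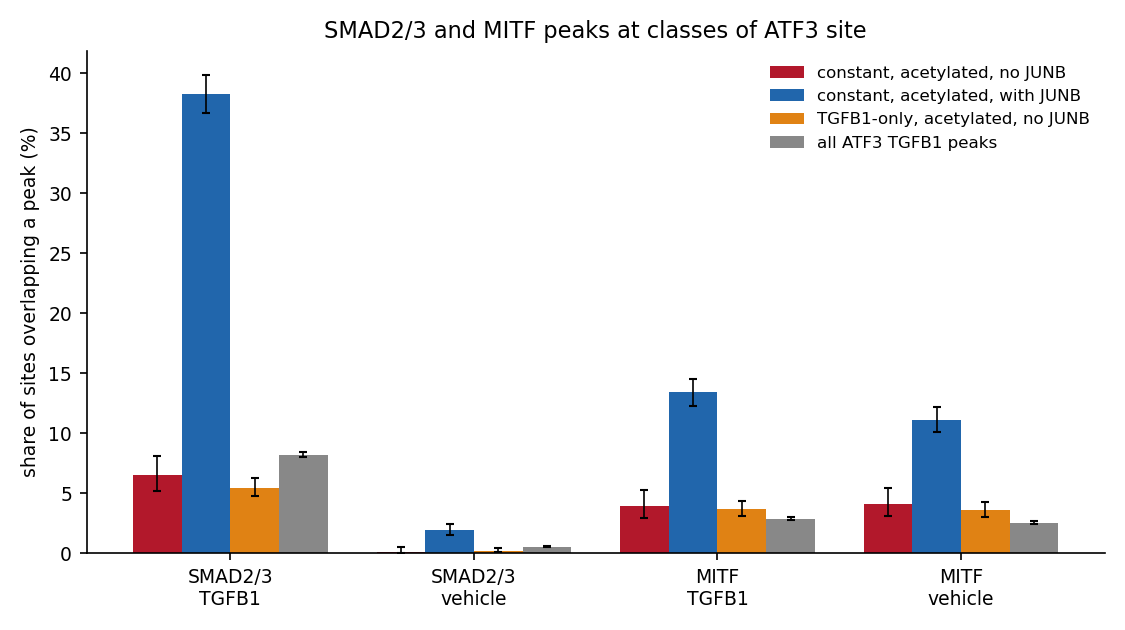
Share of ATF3 sites (y axis, percent) that overlap a SMAD2/3 or MITF peak of either treatment (x axis), by class of site, with 95% Wilson intervals over peaks as error bars. For SMAD2/3 with TGFB1 the bars stand at 6.50% without JUNB and 38.3% with JUNB, and for MITF with TGFB1 at 3.90% without JUNB and 13.4% with JUNB.

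The shares were also compared at like strength, within 4 bins of equal size by ATF3 TGFB1 -log10 p, with bounds at 19.5, 40.6 and 90.6 over both constant acetylated classes. From the weakest bin to the strongest, the share near a start was 26.1, 29.9, 22.7 and 28.9% without JUNB, against 17.0, 11.3, 11.5 and 11.0% with JUNB. SMAD2/3 overlap was 5.95, 6.43, 5.56 and 8.26% without JUNB, against 35.2, 41.0, 39.3 and 37.2% with JUNB. In each bin the classes stayed apart, and no interval of the difference reached 0. MITF TGFB1 overlap was 3.24, 5.62, 1.85 and 4.96% without JUNB, against 12, 15.6, 12.5 and 13.3% with JUNB, and these intervals also left out 0.

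**Figure D3:**
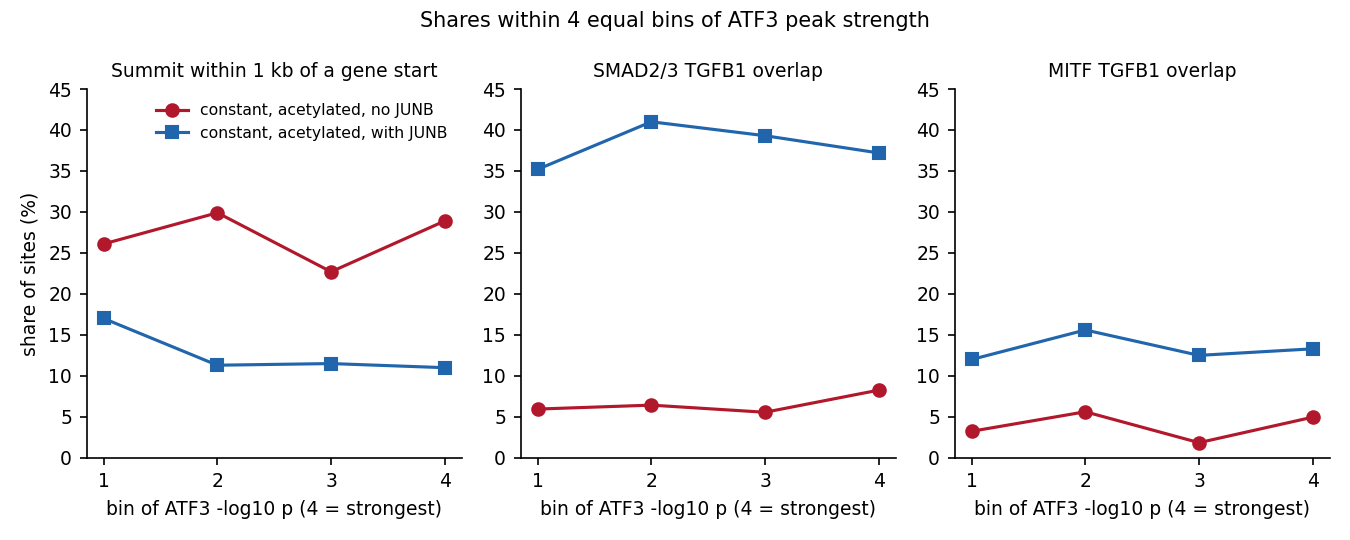
Shares (y axis, percent) within 4 equal bins of ATF3 TGFB1 -log10 p (x axis, 4 is the strongest) for constant acetylated sites without JUNB (circles) and with JUNB (squares). The lines do not cross in any panel. For SMAD2/3 the points without JUNB run from 5.56 to 8.26% and those with JUNB from 35.2 to 41.0%.

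By strength, of the 100 strongest ATF3 TGFB1 peaks, 5 were constant, acetylated and without JUNB, and 72 were constant and acetylated with JUNB. Of the 1000 strongest, 119 were without JUNB and 451 with JUNB. These counts follow in part from the rule, which asked for a vehicle peak, and are a description. The strongest of the sites without JUNB was 11.5 kb upstream of the start of CDKN1A, the p21 inhibitor of cyclin-dependent kinases, at chr6:36666907-36667514. It had 282 reads at the summit with TGFB1 (fold 95.8, -log10 p 491) and 130 with vehicle (fold 84.9, -log10 p 257), with H3K27ac folds of 14 with TGFB1 and 6.95 with vehicle. Its nearest JUNB peak was 10999 bp away. Others of the strongest distant sites with a start within 100 kb lay 70.6 kb from LTBP3, a latent TGF-beta binding protein, with 270 reads with TGFB1 and 128 with vehicle, inside EEIG1, with 275 with TGFB1 and 123 with vehicle, and inside ZBTB8B, with 217 with TGFB1 and 50 with vehicle. Reads of the libraries are set side by side only, since their depths differ.

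The 12 strongest sites near starts are named next, with reads at the ATF3 summit. ZFAND3, a zinc finger gene, came first with 242 reads with TGFB1 and 69 with vehicle, 752 bp downstream of its start. BCAT1, the cytosolic branched-chain amino acid transaminase, had 278 reads with TGFB1 and 107 with vehicle. TARS1 had 230 with TGFB1 and 75 with vehicle, with the summit 3 bp after its start. TIMM44, part of the mitochondrial import motor, had 242 with TGFB1 and 89 with vehicle. In each of these the TGFB1 library, the deeper one, had the larger pileup.

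CBS, the first enzyme of transsulfuration, had 180 reads with TGFB1 and 69 with vehicle. LOC102724560, a near-identical copy of CBS on the same chromosome, had the same 180 with TGFB1 and 69 with vehicle, so reads may have been split between the copies and neither value is certain. CCDC9 (197 with TGFB1, 91 with vehicle), PLEKHH3 (193 with TGFB1, 69 with vehicle), PHPT1, a phosphohistidine phosphatase (213 with TGFB1, 79 with vehicle), and CLIC4, a chloride intracellular channel protein (193 with TGFB1, 54 with vehicle), were of similar height. PLTP, the phospholipid transfer protein, had 189 with TGFB1 and 56 with vehicle, and its H3K27ac was called with TGFB1 only (fold 9.78). TRUB1, a tRNA pseudouridine synthase, had 177 with TGFB1 and 40 with vehicle. Of these 12 sites, those within 1 kb of a JUNB peak were CCDC9 at 130 bp, PLEKHH3 at 720 bp, ZFAND3 at 752 bp and CLIC4 at 908 bp.

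The composite element was more frequent in promoters of these sites than in all promoters. For 113 promoters the ATF3 summit of a site without JUNB fell inside the 300-base window of the table, from 250 bases before the start to 50 from it on. TGATGCAA, searched on both strands (TTGCATCA on the other), was in 13 of them (11.5%, 6.85 to 18.7), against 13 of 211 with JUNB (6.16%), 3 of 285 TGFB1-only sites (1.05%) and 0.670% of all 15812 promoters. The CRE, TGACGTCA, its own reverse complement, was in 12 of the 113 (10.6%, 6.18 to 17.6), against 46 of 211 with JUNB (21.8%), 9.12% for TGFB1-only sites and 2.59% of all promoters. The AP-1 element, TGACTCA or TGAGTCA, was in 0 of 113 (Wilson upper bound 3.29%, or 2.65% by the limit of 3 counts that a count of 0 allows), against 17 of 211 with JUNB (8.06%), 2 of 285 TGFB1-only sites (0.702%) and 3.67% of all promoters. Either a CRE or a composite was in 25 of the 113 (22.1%). A wider count took the 280 genes whose start was the nearest to a summit within 1 kb. It gave 20 for the CRE (7.14%), 13 for the composite (4.64%) and 4 for AP-1 (1.43%). A match is a description of letters and not of a bound site.

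**Figure D4:**
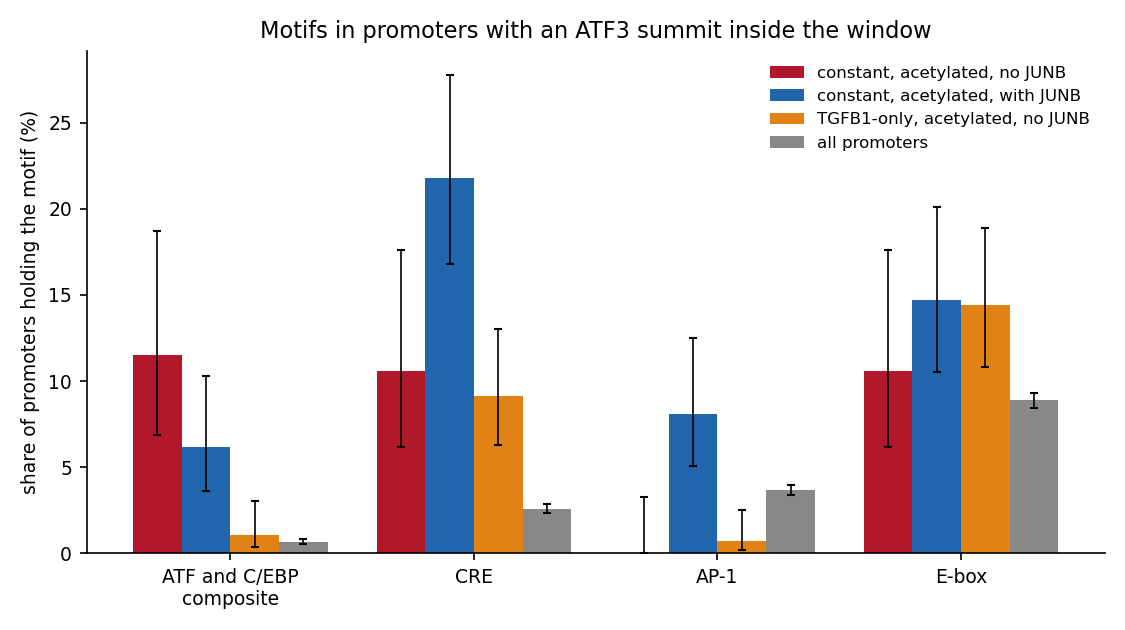
Share of promoters (y axis, percent) that hold each motif (x axis), for promoters whose 300-base window contains an ATF3 summit of each class, and for all promoters of the table. Error bars are 95% Wilson intervals over promoters. The composite stood at 11.5% without JUNB and 0.670% of all promoters, and AP-1 at 0 of 113 without JUNB and 8.06% with JUNB.

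The composite lay at the summit itself. Its centre was a median of 6.5 bp from the ATF3 summit, and within 30 bp in 12 of the 13 promoters. In BCAT1, CARS1, RSL24D1 and GOT1 the distance was 0.5 bp, the least possible for an element of even length. In TARS1 it was 2.5 bp and in PLEKHH3 4.5 bp, as the stretches printed above show. The exception was FBLL1, at 77.5 bp. CRE centres were a median of 14.5 bp from the summit, and 11 of 12 lay within 30 bp, with PARD6A at 98.5 bp. At sites with JUNB the composite medians were alike, at 7.5 bp with 12 of 13 within 30 bp.

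Sites with a composite were strong. Their 13 ATF3 peaks had a median of 123 reads with TGFB1 (16 to 278) and 28 with vehicle (10 to 107). The 12 with a CRE had 27 with TGFB1 (13 to 153) and 10 with vehicle (5 to 58), and the 88 with neither had 36.5 with TGFB1 (10 to 242) and 11 with vehicle (4 to 93). All these groups overlapped in range. The composite promoters belonged to BCAT1, TARS1 and CARS1 (the cysteinyl-tRNA synthetase), PLEKHH3, TRUB1, RSL24D1 (a ribosome biogenesis factor), NCOA7 (a coactivator of nuclear receptors), KCNT2 (a potassium channel), PLRG1 (a spliceosome component), GOT1 (the cytosolic aspartate transaminase), ZNF577, FBLL1 and KNSTRN (a spindle protein). CARS1 had 123 reads with TGFB1 and 47 with vehicle. GOT1 had 103 with TGFB1 and 28 with vehicle. KNSTRN, the weakest, had 16 with TGFB1 and 10 with vehicle.

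**Figure D5:**
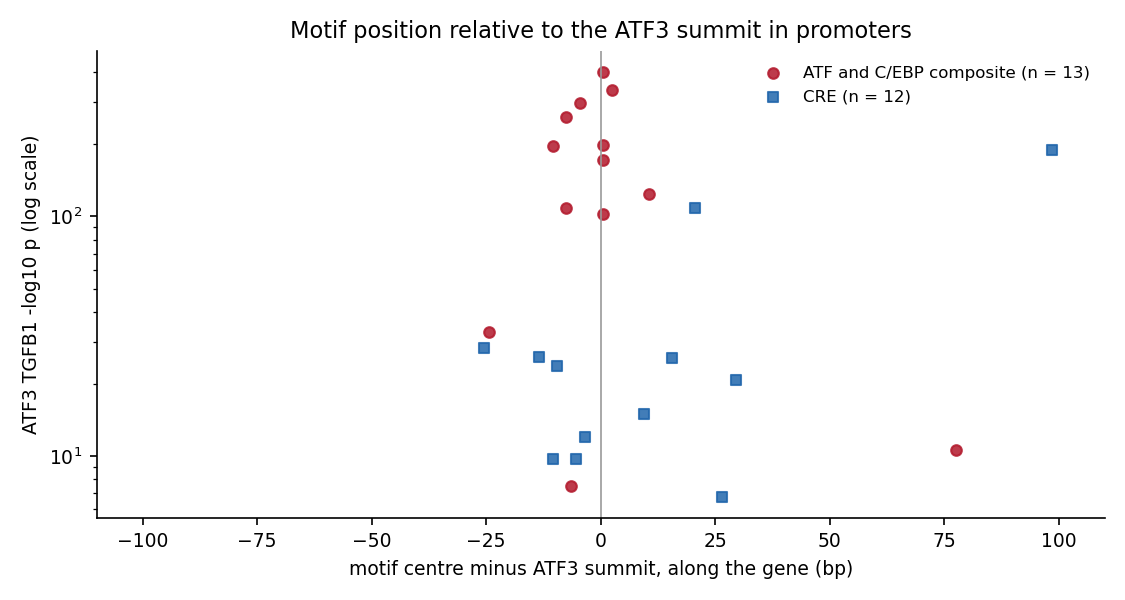
Distance of the motif centre from the ATF3 summit along the gene (x axis, bp) against ATF3 TGFB1 -log10 p (y axis, log scale) for promoters of sites without JUNB, with composites as circles (n = 13) and CREs as squares (n = 12). The circles cluster at 0, and FBLL1 at 77.5 bp and PARD6A at 98.5 bp stand apart.

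Strong promoters with a CRE within 1 kb of the summit included those of ISL2, a LIM homeodomain factor (173 reads with TGFB1, 43 with vehicle), and PARD6A, a cell polarity protein (153 with TGFB1, 58 with vehicle). FN1, which encodes fibronectin, had 100 with TGFB1 and 9 with vehicle. Its H3K27ac folds were 10.5 with TGFB1 and 3.45 with vehicle. ZC3H4, which acts in transcription termination, had 90 with TGFB1 and 24 with vehicle, and ACOX3, a peroxisomal oxidase, had 47 with TGFB1 and 16 with vehicle. The ISL2, FN1 and ACOX3 summits lay 0.313 to 0.428 kb from the start, and the ACOX3 site was 191 bp from a JUNB peak.

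Genes of the integrated stress response, the program that ATF4 drives when amino acids or folding capacity run short, were counted at sites of both constant acetylated classes. Over all starts the shares were 1.95% without JUNB, 2.92% with JUNB and 6.72% for TGFB1-only sites. Differences between the classes were not tested. Of 26 listed genes with a start, 3 had a site without JUNB within 1 kb: PHGDH, the first enzyme of serine synthesis (146 reads with TGFB1, 33 with vehicle), WARS1, the cytosolic tryptophanyl-tRNA synthetase (128 with TGFB1, 30 with vehicle), and VLDLR, a lipoprotein receptor (131 with TGFB1, 43 with vehicle). With JUNB the count was 13, among them ASNS, CHAC1, TRIB3 and DDIT3. TGFB1-only sites had 3 (DDIT3, PSAT1 and AARS1), all of them also among the 13. In 2 lists chosen after values were seen, aminoacyl-tRNA synthetases had 5 of 30 without JUNB (TARS1, WARS1, CARS1 and the mitochondrial NARS2 and LARS2), 7 with JUNB and 6 at TGFB1-only sites. Amino acid metabolism had 5 of 20 without JUNB (BCAT1, CBS, PHGDH, GOT1 and PCK2), 5 with JUNB and 3 at TGFB1-only sites. A gene could count in several classes, as BCAT1 did without JUNB and at TGFB1-only sites. The mitochondrial pair was weak, at 29 reads with TGFB1 and 8 with vehicle for NARS2, and 18 with TGFB1 and 6 with vehicle for LARS2.

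Other lists had a gene or so each. ATF3's own family was represented by JDP2 (109 reads with TGFB1, 31 with vehicle), a repressor that binds CRE and AP-1 sites, 1 of 19 genes, and JUN and FOS genes by FOSB (56 with TGFB1, 13 with vehicle), 1 of 6, while JUN, JUND and FOSL2 had sites with JUNB. DNA damage and p53 targets had 2 of 17, PMAIP1, a pro-death BCL2 family gene (154 with TGFB1, 36 with vehicle), and DDB2 (72 with TGFB1, 26 with vehicle). The cAMP and CREB list had NR4A3 (1 of 20), DNA repair BRCA2 (1 of 17), replication and cell cycle PLK1 (1 of 18), ribosomal proteins RPL32 (1 of 21), the proteasome PSMB4 (1 of 21), the respiratory chain CYCS (1 of 22) and the extracellular matrix list FN1 (1 of 15). No start of the unfolded protein response (0 of 19), clock (0 of 16), splicing (0 of 23), histone (0 of 19), lysosome (0 of 13), pigment (0 of 17), TGF-beta target (0 of 23) or interferon (0 of 16) lists had one, nor of the 9 genes marking other cell types. With JUNB, TGF-beta targets had 2 (COL7A1 and BHLHE40) and pigment genes 0. At TGFB1-only acetylated sites without JUNB, TGF-beta targets had 3 and pigment genes 1. Over all starts the share was 1.95% without JUNB, 2.92% with JUNB and 6.72% for TGFB1-only sites. At such shares, neither a single gene nor a count of 0 says anything particular to a list of this size.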

How the data were processed

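Peak lists of 10 chromatin immunoprecipitation libraries were used, 1 per antibody and treatment; the inputs were not analysed here. Although the series design mentions technical triplicates, the sample labels give single libraries. The titles of the ATF3 and JUNB samples end in the same date, which those of the other antibodies do not. The labels do not say what the date marks. Reads were aligned with Bowtie to GRCh38 and peaks were called with MACS2 2.0, per the submitters' processing notes; which input served as control is not given in the sources used here. The fold enrichment ratio and the -log10 p and -log10 q of each peak are the deposited values of the authors' caller. Ranks and thresholds used them within their own list. Values of different lists are set side by side only, since library depths differ.

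Identical intervals were counted once, and peaks overlapped when they shared 1 bp or more. Summit pileup and background were solved from fold and -log10 p, assuming 1 pseudocount in each, within 0.002 for 100% of peaks. Depth was implied from the 1st percentile of background, the shortest peak and a 2.7 Gb genome, giving 6.37 to 47.7 M reads. Gene starts are those of 15812 of 19974 protein-coding genes in RefSeq tables (GRCh38.p14); starts on chromosome 8, which holds 31 of the sites, were not used. Shares carry 95% Wilson intervals and differences Newcombe intervals, since with single libraries no test across samples exists. The named genes, ranked by ATF3 TGFB1 -log10 p, are the 12 strongest sites near a start, the 4 strongest with every start over 10 kb away but one within 100 kb, the 6 strongest each with SMAD2/3, MITF of both treatments or a CRE, and up to 4 per gene list. Of the CRE set, 1 gene is not reported here. Composite promoters, KIAA0232 and the genes named with JUNB were added after their values were seen. The sites and lists were chosen with earlier results of these data known. Overlaps, gaps and pileup recovery were tested on simulated data. Python 3.11.15, pandas 2.3.3, numpy 2.4.6, scipy 1.17.1 and matplotlib 3.10.9 were used.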

Additional observations from a re-analysis of the deposited data

How the results depend on the processing

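Of 65 alternatives, 50 left the result as it was (within its interval for a share, on the same side of 0 for a difference, within 1.5 times for a count) and 15 moved it. The counts by either gene end and by ATF3 summits inside SMAD2/3 or MITF peaks were added after the values were seen. The differences from sites with JUNB were recomputed only within the 4 bins of ATF3 strength and with these added counts. None of these turned the direction of a difference. The changes to the rule itself were applied to counts and shares, and not to the differences. The share of sites with a start within reach was 19.0% at 500 bp, 33.4% at 2 kb and 31.0% when either gene end stood for the start. SMAD2/3 overlap was 10.9% where every overlap of the rule required the ATF3 summit inside the partner peak, 8.15% with only JUNB peaks of -log10 q of at least 5, 3.34% with only SMAD2/3 peaks of that level, and 4.46% for ATF3 summits inside SMAD2/3 peaks. MITF TGFB1 overlap was 6.19% with the stricter JUNB peaks, 2.32% with stricter MITF peaks and 2.41% for summits inside MITF peaks. MITF vehicle overlap was 2.67% with reciprocal overlap of 50%, 5.60% with the summit rule and 5.96% with the stricter JUNB peaks. H3K27ac vehicle overlap was 94.3% with the summit rule, and 100% by construction where H3K27ac of both treatments was required. The number of sites stayed within 1.5 times of 1077, and 745 to 1077 of them were kept by each rule. The summit rule and the stricter JUNB peaks also let in sites that overlapped a JUNB peak by 1 bp or more. No paired analysis was possible because each antibody and treatment had 1 library. Shallow ATF3 vehicle and MITF libraries limit which weak peaks could be called, and motifs at distant sites were not searched, since no genome sequence was used here.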

Other observations

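The shares of other motifs in the 113 promoters with a summit of a site without JUNB were as follows, with no test of the differences. The core TGACG, which lies inside every CRE, was in 77 (68.1%), against 69.7% with JUNB, 50.9% for TGFB1-only sites and 29.4% of all promoters. The GC box GGGCGG was in 71.7%, against 70.6% with JUNB, 70.9% for TGFB1-only sites and 58.5% of all promoters. The ETS motif CCGGAAG was in 23.9%, against 22.3% with JUNB, 20.7% for TGFB1-only sites and 14.2% of all promoters. CCAAT was in 45.1%, against 34.1% with JUNB, 43.5% for TGFB1-only sites and 36.3% of all promoters. The E-box CACGTG, the kind of element that MITF binds, was in 10.6%. It was in 14.7% with JUNB, 14.4% for TGFB1-only sites and 8.87% of all promoters. CAGAC, a SMAD binding core, was in 49.6%, against 41.7% with JUNB, 45.6% for TGFB1-only sites and 44.1% of all promoters. The NRF1 core GCGCATGC was in 4.42%, against 4.74% with JUNB, 5.61% for TGFB1-only sites and 4.26% of all promoters. All were searched on both strands.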
